A study of Mus musculus with 12 samples.

Results

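The comparison set a pair of oleanane triterpenoids, CDDO-Im and CDDO-Me, pooled as 1 class, against dimethyl fumarate (DMF), a small ester of fumaric acid. The class was made of the 6 arrays from cells given 0.05 µM CDDO-Im or 0.1 µM CDDO-Me, chosen by their titles, of 12 arrays in all. The 3 arrays of 15 µM DMF stood opposite them, and the 3 arrays of the solvent DMSO gave the reference level. All 4 groups were cultures of VC1 cells, a lung adenocarcinoma line from a female A/J mouse, treated for 6 h in the same medium, with no genetic change named in the labels. Each array measured total RNA on an Illumina mouse expression BeadChip. The doses differed between the 3 compounds, so the values compare the treatments as given, and compound and dose cannot be told apart. The labels do not say whether the 3 arrays of a group came from separate cultures, so p-values measure the spread between these arrays, which may be technical.

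Both class members derive from CDDO, a synthetic oleanane triterpenoid, and differ in the group on its acid, an imidazolide in CDDO-Im and a methyl ester in CDDO-Me. The triterpenoids and DMF are electrophiles that modify cysteines of KEAP1, the adaptor that marks the transcription factor NRF2 for degradation. NRF2 that escapes KEAP1 binds antioxidant response elements with a small MAF partner and raises genes of glutathione synthesis, quinone reduction, NADPH supply and heme breakdown. BACH1, a repressor, holds the same elements at some of these genes, among them the heme oxygenase gene Hmox1.

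Markers of lung epithelium were present in the cells, with 14 of 26 listed genes above background on all 12 arrays, among them the lineage factor Nkx2-1, the lamellar body transporter Abca3 and the keratins Krt8, Krt18 and Krt19. The surfactant genes Sftpa1, Sftpc and Sftpd and the adhesion gene Epcam were above background on none. Of 18 leukocyte markers on the array 11 were above background on no array, including Ptprc and Cd3e, while Cd14 was on 12, Cd68 and Gp49a on 11 and Fcgr3 on 10. Of 11 endothelial markers 5 were on none, including Pecam1 and Vwf, while Flt1 was on 12, Kdr on 11 and Esam on 9. Of 12 fibroblast markers 5 were on none, including Dcn and Col3a1, while Vim, Acta2 and S100a4 were on all 12 arrays. DMSO replicate 1 and CDDO-Im replicate 2 stood apart, with mean signals of 439.6 and 457.2 intensity units against 551.6 to 683.7 on the other arrays. Their median correlations with the rest were 0.915 and 0.935, while the lowest among the other 10 arrays was 0.9883. Both were hybridised on the same BeadChip of the 2 used. Counts over all genes are therefore given for all 12 arrays and again for the 10 arrays without them, with the gene levels from the 12-array normalization. Counts of gene lists are those of 10 arrays unless 12 are named. With 12 arrays the calls between class and DMF in the lists were Hmox1 in the heme and iron list and Sox9 and Cldn2 among the lung epithelium markers. Every other list had 0 called with 12 arrays by limma, with 0 to 6 members at an unadjusted p under 0.05.

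With 12 arrays, 9 of 13280 genes differed between the class and DMF at an adjusted p under 0.05 by limma, 0.0678% of the genes tested. Of these 6 were higher in the class (0.0452%) and 3 were lower (0.0226%). Among the 6 were the heme oxygenase gene Hmox1, the endothelins Edn2 and Edn1, the FGF-binding protein gene Fgfbp1 and Dppa5a, an RNA-binding protein gene known from pluripotent cells. The lower genes were the epithelial transcription factor Sox9, the tight junction claudin Cldn2 and the GTPase-activating protein gene Sgsm1. All 9 were also called in the same direction with 10 arrays, where 606 genes were called (4.56%), 320 higher (2.41%) and 286 lower (2.15%). The median standard error of the difference was 0.2121 log2 units with 12 arrays and 0.0773 with 10. Of the 606 genes, 603 had the same sign of difference with 12 arrays, which include those 10. The 12-array calls rested on few arrays: 0 genes were called without DMSO replicate 3, without CDDO-Im replicate 3, or without any 1 of the CDDO-Me or DMF arrays, with 232 to 379 genes at an unadjusted p under 0.05 by limma. Without DMSO replicate 1 there were 77 calls, without CDDO-Im replicate 2 there were 39, and without CDDO-Im replicate 1 there were 4. Leaving out 1 more of the 10 arrays gave 264 to 645 calls, fewest without CDDO-Im replicate 3, and at least 40.3% of the 606 genes were called each time.

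Hmox1, which encodes the enzyme that breaks heme into biliverdin, iron and carbon monoxide, had the largest difference of any gene called. On the log2 signal scale, where a step of 1 is a 2-fold change, its 6 class arrays read 10.04 at the lowest, 10.46 at the median and 11.11 at the highest. The DMF arrays read 7.77, 7.67 and 7.74 and the DMSO arrays 7.47, 5.83 and 6.01. Every class array lay above every DMF array, and every DMF array above every DMSO array. The log2 difference between class and DMF was 2.80 ± 0.34 (standard error) with 12 arrays (limma adjusted p = 0.0238) and 2.92 ± 0.10 with 10. Against DMSO with 10 arrays, the log2 difference of Hmox1 was 5.13 for CDDO-Im, 4.29 for CDDO-Me and 1.79 for DMF.

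Other heme and iron genes differed in the same direction with 10 arrays. Slc40a1 encodes ferroportin, the iron exporter, and its log2 signal on the class arrays was 8.65 at the lowest, 9.14 at the median and 9.28 at the highest. The DMF arrays had 7.61, 7.18 and 7.51 and the DMSO arrays 4.95, 6.57 and 6.41, so that the 3 levels did not overlap. The difference between class and DMF was 1.72 ± 0.09 (adjusted p = 0.000127, limma, 10 arrays), and with 12 arrays it was 1.68 ± 0.32 with an adjusted p of 0.165. Abcb6, a porphyrin transporter, was 0.42 higher in the class, and Blvrb, a biliverdin reductase, was 0.36 higher. In all, 4 of 12 tested genes of the heme and iron list were higher in the class with 10 arrays and 0 were lower. Over all genes 2.41% were higher and 2.15% lower. In the list 5 had an unadjusted p under 0.05. With 12 arrays 1 was called, Hmox1. Hfe, the hemochromatosis gene that regulates iron uptake and was not on that list, ran from 7.37 to 7.83 in the class, and it read 6.77, 6.60 and 6.60 with DMF and 6.22, 6.62 and 6.56 with DMSO. The DMF and DMSO arrays of Hfe thus overlapped while all 6 class arrays sat above both. Hfe was one of the genes that the class moved and DMF lacked with 10 arrays, by the limits given further on.

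Bach1 itself, the repressor of Hmox1, was higher in the class, from 9.23 to 9.76 on the log2 signal scale against 8.42, 8.28 and 8.14 with DMF. The DMSO arrays of Bach1 were widely spread at 6.50, 8.50 and 7.44. Its difference between class and DMF was 1.19 ± 0.19 with 10 arrays (limma adjusted p = 0.013), and 1.21 ± 0.35 with 12 (adjusted p = 0.667). Mafg, a small MAF partner of NRF2, was 0.42 higher and Sqstm1, a cargo receptor that binds KEAP1, was 0.27 higher. Trib3, a pseudokinase gene induced by ATF4, ran the other way, with a difference of -0.41 between class and DMF.

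Many other NRF2 target genes rose from DMSO with both kinds of compound, and some rose further with the class. With 10 arrays, 18 of 22 tested glutathione genes were called above DMSO in the class and 15 with DMF. The background in those comparisons was 6.81% and 4.16% of all genes above DMSO, with 7.15% and 4.26% below it. With 12 arrays, 1.54% of genes were called above DMSO and 0.459% below it in the class, and 0.324% and 0.0226% with DMF. Directly against DMF, 9 of the 22 were higher in the class with 10 arrays and 1 was lower, against 2.41% and 2.15% of all genes. With 12 arrays 0 of the 22 were called against DMF by limma, with 6 at an unadjusted p under 0.05, while 11 were called above DMSO in the class and 8 with DMF. Gclc, the catalytic subunit of glutamate-cysteine ligase, read 9.58, 9.92 and 10.35 at the lowest, median and highest class array, 8.70, 9.50 and 9.21 with DMF, and 7.29, 6.67 and 7.15 with DMSO. The lowest class array of Gclc exceeded the highest DMF array by a narrow margin, and the difference was 0.90 ± 0.09 with 10 arrays (limma adjusted p = 0.00123). Gsta3, a glutathione S-transferase, was 0.91 higher. It was above background on no DMSO array and stood at least 9.53-fold above DMSO in the class and at least 4.99-fold with DMF.

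Smaller differences of the same sign were found for Gss, glutathione synthetase (0.55), the cystine transporter Slc7a11 (0.42), the modifier subunit Gclm (0.38) and the sulfiredoxin Srxn1 (0.51). Slc7a11 was among the genes furthest above DMSO with both kinds of compound, by 3.69 in the class and 3.27 with DMF. In the quinone and aldehyde list, 5 of 14 genes were higher in the class with 10 arrays and 0 lower (0 called by limma with 12 arrays, 3 at an unadjusted p under 0.05), led by the retinaldehyde dehydrogenases Aldh1a7 (0.68) and Aldh1a1 (0.58), with the carbonyl reductase Cbr3 at 0.35 and the quinone reductase Nqo1 at 0.33. Nqo1 had an adjusted p of 0.0209 by limma with 10 arrays, while with 12 arrays its difference was 0.20 ± 0.20. Txnrd1, thioredoxin reductase, was 1.71 above DMSO in the class and 1.68 above it with DMF, a difference of 0.03 ± 0.10 that did not pass the test. The NADPH supply list had 0 of 8 genes called by limma between class and DMF, with 3 at an unadjusted p under 0.05. Joined, the 6 NRF2 lists had 23 of 76 genes higher in the class and 3 lower with 10 arrays, but 1 higher, Hmox1, and 0 lower with 12. Of all genes, 2.41% were higher and 2.15% lower with 10 arrays. The joined lists' median log2 difference from DMSO with 10 arrays was 0.70 in the class and 0.50 with DMF. Over all genes those medians were -0.02 and -0.02.

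Fgfbp1, which releases fibroblast growth factors from the matrix, ran from 6.92 to 7.28 in the class and read 6.12, 6.06 and 6.15 with DMF. It was above background on no DMSO array and stood at least 3.51-fold above DMSO in the class and at least 1.77-fold with DMF. Dppa5a was 4.01 above DMSO in the class and 3.05 with DMF, both called with 12 arrays, and differed between them by 0.96 ± 0.12 (adjusted p = 0.0275). Eomes, a T-box factor, Abcb4, a phospholipid exporter, Calr3, a calreticulin, and Glyat, glycine N-acyltransferase, filled the 12 largest differences with 10 arrays, at 1.31, 1.16, 1.14 and 1.05. Each of these 4 rose from DMSO with both kinds of compound in that fit, by 2.51 to 3.29 in the class and by 1.30 to 2.15 with DMF.

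**Figure D1:**
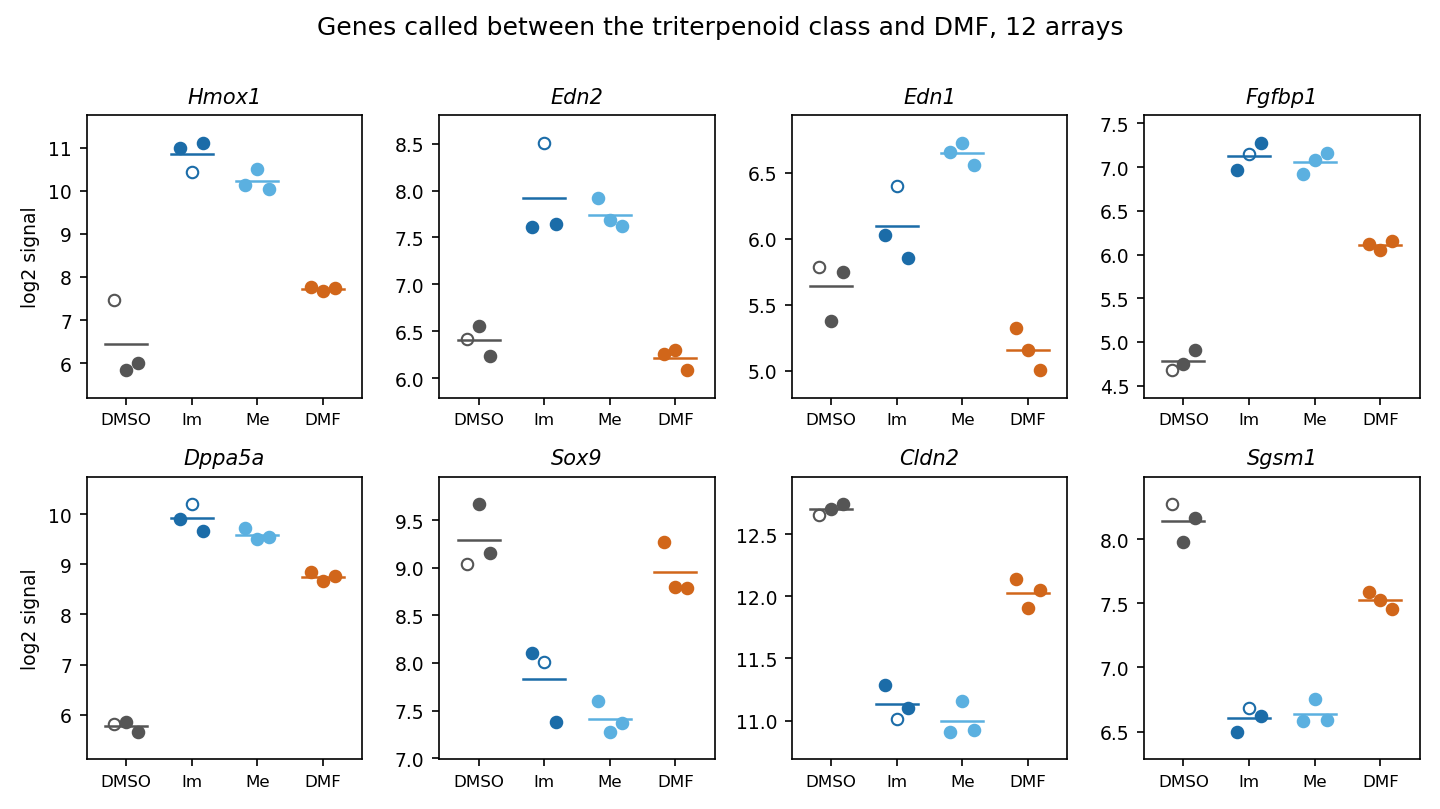
Each panel plots the log2 signal (y axis) of 1 gene on the 12 arrays, by treatment (x axis), with Im for 0.05 µM CDDO-Im, Me for 0.1 µM CDDO-Me and a line at each group's mean. Open circles are DMSO replicate 1 and CDDO-Im replicate 2. In all 8 panels the 6 class arrays lie wholly above or wholly below the 3 DMF arrays, and for Edn1 and Edn2 the DMF mean lies below the DMSO mean.

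The endothelins are the pair of called genes that the class moved away from DMSO on one side while DMF lay on the other. Edn1 and Edn2 encode short vasoactive peptides that act on endothelin receptors. Edn2 read 7.61, 7.67 and 8.51 at the lowest, median and highest class array, 6.26, 6.30 and 6.08 with DMF, and 6.42, 6.56 and 6.24 with DMSO. The class arrays lay above all others, and the DMF and DMSO arrays overlapped. The log2 difference of Edn2 between class and DMF was 1.58 ± 0.19 with 12 arrays (limma adjusted p = 0.0238), of which 1.47 was the rise from DMSO in the class. Its difference between DMF and DMSO was -0.11 (adjusted p = 0.854), so it counts as moved by the class and lacking with DMF.

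Edn1 was dimmer, with class arrays from 5.85 to 6.73 (median 6.48), DMF arrays at 5.32, 5.16 and 5.0, and DMSO arrays at 5.79, 5.38 and 5.75. DMF lay below DMSO and the class above it without overlap, although only 1 of the 3 DMF arrays was above background. The difference between class and DMF was 1.19 ± 0.16 (limma adjusted p = 0.0365), made of a rise of 0.75 from DMSO in the class (adjusted p = 0.0435) and a difference of -0.44 with DMF that did not pass the test (adjusted p = 0.661). With 10 arrays, CDDO-Me was 1.09 above DMSO for Edn1 (adjusted p = 0.00155) and CDDO-Im 0.38 (adjusted p = 0.16). The call depends on processing, with Edn1 called in 11 of 26 alternatives and its difference between 0.26 and 1.26, the lowest in the authors' normalized matrix.

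The promoters of both endothelin genes are shown because these genes moved together with the class and not with DMF. They were taken from RefSeq, build GRCm38.p6, from 250 bases before to 50 bases after the gene's start, and are written 5′ to 3′ on the gene's strand. Capitals mark TGACNNNGC, the core of the antioxidant response element, or TGACTCA, the element of AP-1 factors, searched on both strands. A TGACTCA followed by GC meets both patterns. Edn1 lies at chr13:42301226-42301525 on the plus strand and holds 1 TGACNNNGC, and Edn2 at chr4:120160956-120161255 on the plus strand holds neither pattern.
Edn1: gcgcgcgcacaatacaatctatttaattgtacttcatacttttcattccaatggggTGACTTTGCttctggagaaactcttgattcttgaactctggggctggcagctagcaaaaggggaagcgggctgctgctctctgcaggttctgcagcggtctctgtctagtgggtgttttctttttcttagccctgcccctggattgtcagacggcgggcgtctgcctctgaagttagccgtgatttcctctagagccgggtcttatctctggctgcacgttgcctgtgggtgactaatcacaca
Edn2: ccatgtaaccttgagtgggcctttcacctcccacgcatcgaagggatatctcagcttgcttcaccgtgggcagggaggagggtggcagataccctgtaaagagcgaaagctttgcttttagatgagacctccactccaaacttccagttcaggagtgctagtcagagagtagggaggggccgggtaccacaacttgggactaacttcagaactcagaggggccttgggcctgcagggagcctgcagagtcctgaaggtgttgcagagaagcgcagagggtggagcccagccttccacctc

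Promoters were in the table for 8481 of the 13280 genes. TGACNNNGC was found in 16.7% of them, in 21.8% of the 211 of genes higher in the class (10 arrays) and in 15.3% of the 196 of genes lower in the class. TGACTCA was found in 4.72% of all, in 11.4% of the first set and in 10.2% of the second. These shares describe letters in a 300-base window and were not tested.

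Genes that the class moved and DMF lacked were defined as called between class and DMF, called in the class against DMSO in the same direction, and within 0.3 log2 units of DMSO with an unadjusted p over 0.05 for DMF. With 12 arrays these were Edn2 above DMSO and Sox9 below it, 0.00753% of genes each way. With 10 arrays there were 70 above DMSO (0.527%) and 100 below it (0.753%). Both triterpenoids were called on their own against DMSO in the same direction for 45 of the 70 and 53 of the 100. Besides Edn2, the largest above DMSO were the mitochondrial biogenesis coactivator Ppargc1a, Hfe, the actin-binding Ccdc88a, the ubiquitin-conjugating enzyme Ube2o and the matricellular protein gene Ccn4. Ube2o ran from 11.95 to 12.68 in the class against 11.48, 11.39 and 11.39 with DMF and 11.33, 11.38 and 11.23 with DMSO. All 3 DMF arrays of Ube2o lay just above the DMSO arrays, by 0.13 in the mean with 10 arrays (limma adjusted p = 0.283), and its difference between class and DMF was 0.73 ± 0.05 with 10 arrays (limma adjusted p = 0.000403). For Ppargc1a only CDDO-Me passed the test against DMSO on its own, with 0.83 against 0.43 for CDDO-Im.

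Sox9, a transcription factor of epithelial progenitors, had the largest difference from DMF of the 3 genes called lower with 12 arrays. With 10 arrays Ivl, Padi1 and Mgat3 lay further from DMF. Its log2 signal was 7.28, 7.49 and 8.11 at the lowest, median and highest class array, 9.26, 8.80 and 8.79 with DMF, and 9.04, 9.67 and 9.15 with DMSO. The class lay below both other groups, and DMF and DMSO overlapped. The difference between class and DMF was -1.40 ± 0.16 with 12 arrays (limma adjusted p = 0.0238), and with 10 arrays it was -1.29 for CDDO-Im and -1.54 for CDDO-Me. With DMF, Sox9 differed from DMSO by -0.20 with 12 arrays (adjusted p = 0.694) and by -0.38 with 10 (adjusted p = 0.0569), past the 0.3 limit in the second fit.

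Il1rn, the interleukin-1 receptor antagonist, met the limits for genes the class lowered and DMF lacked with 10 arrays. Its class arrays read from 10.80 to 11.33, its DMF arrays 12.24, 12.31 and 12.19, and its DMSO arrays 11.17, 12.46 and 12.24. The DMSO array at 11.17 is replicate 1, which stands apart, and the other DMSO arrays lay level with DMF. The difference of Il1rn between class and DMF was -1.23 ± 0.07 with 10 arrays (limma adjusted p = 0.000127) and -1.18 ± 0.24 with 12 (adjusted p = 0.192). Padi1, a peptidylarginine deiminase of cornifying epithelia, was -1.66 and Mgat3, which adds bisecting N-acetylglucosamine to N-glycans, was -1.45 in the same fit. For Padi1, CDDO-Im replicate 2 read 8.05 while the other class arrays read 5.58 to 6.56, so its class and DMF arrays overlap when all 12 are kept. Synpo, an actin-binding synaptopodin, was -1.07, and its difference from DMF was -0.41 with CDDO-Im and -1.74 with CDDO-Me.

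Cldn2 and Sgsm1 fell with the class and, less far, with DMF. Cldn2 encodes a claudin that forms cation channels in tight junctions, and it read 10.91, 11.05 and 11.29 at the lowest, median and highest class array, 12.14, 11.91 and 12.05 with DMF, and 12.66, 12.71 and 12.74 with DMSO. The 3 levels were separate. Against DMSO with 10 arrays, Cldn2 was -1.63 in the class and -0.69 with DMF, both called. Sgsm1 ran from 6.50 to 6.75 in the class, with DMF at 7.59, 7.53 and 7.45 and DMSO at 8.27, 7.98 and 8.16. Of 17 tested lung epithelium markers, 5 were lower in the class than with DMF with 10 arrays and 0 higher. Over all genes 2.15% were lower and 2.41% higher. The 5 lower markers were Sox9, Cldn2, the water channels Aqp5 and Aqp8, and the keratin Krt7. Nkx2-1, Abca3, Cdh1 and the keratins Krt8, Krt18 and Krt19 were not called between class and DMF in either fit. The list was chosen with earlier results of these data known, so the count is no test of lung epithelial markers as a group. In the list 5 had an unadjusted p under 0.05. With 12 arrays Sox9 and Cldn2 were called. The summed signal of the list was 77761 to 83400 in the DMSO arrays, 67661 to 69964 with DMF, 58333 to 62575 with CDDO-Im and 55441 to 58108 with CDDO-Me, in linear units after normalization. In bulk RNA, fewer cells of a type and less RNA per cell cannot be told apart.

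The reverse, genes that DMF moved and the class lacked, was rarer by count, but the limits were not equally easy to meet on both sides. The class mean rested on more arrays than DMF, so a difference from DMSO was easier to call for the class. With 12 arrays 0 genes met the mirrored limits by limma, with 51 at unadjusted p-values under 0.05. With 10 arrays there were 24 above DMSO (0.181%) and 20 below it (0.151%). Both triterpenoids on their own were within 0.3 log2 units of DMSO for 20 of the 24 and 19 of the 20. Serpinb9f, a serine protease inhibitor gene of the granzyme-inhibitor family, led them with 9.07, 8.98 and 9.09 on the DMF arrays, 7.77, 8.28 and 8.20 with DMSO, and 8.03 to 8.39 in the class. DMF lay above both other groups, which overlapped, and the class was -0.84 ± 0.08 from DMF with 10 arrays (limma adjusted p = 0.000883). Its relative in the same gene family, Serpinb9e, was -0.61 and above background on 2 of 3 arrays in each of the other groups. Whether the probes of these near-identical genes share signal was not tested. The probe that the array names Utx, after a histone demethylase, was above background on the 3 DMF arrays and no other. It thus passed the detection filter through DMF alone. Its signal with DMF was at least 1.28-fold above the class and at least 1.38-fold above DMSO. Msmo1, a sterol oxidase of cholesterol synthesis, was 0.84 above DMSO with DMF and 0.26 in the class.

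Oasl1 and Adgra1 met the limits as a class mean although their triterpenoids parted. Oasl1, an interferon-induced gene, differed from DMSO by 0.50 with CDDO-Im and by -0.40 with CDDO-Me (adjusted p = 0.00837 and 0.0143, limma, 10 arrays). Adgra1, an adhesion GPCR, was 0.59 and -0.34 in the same order. The doses of the 2 triterpenoids differed, and no test between them was made.

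Among genes that DMF lowered and the class did not were the AP-1 subunit Jun, the sorting receptor Sort1 and the actin oxidase Mical1. Jun read 6.78, 6.69 and 6.54 with DMF and 7.02 to 8.25 in the class. The DMSO arrays of Jun were 8.45, 7.17 and 7.12, where the highest is the replicate that stands apart, and the highest class array was CDDO-Im replicate 2. The class was 0.49 ± 0.07 above DMF with 10 arrays (limma adjusted p = 0.00787), with DMF -0.46 from DMSO and the class 0.03.

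The other AP-1 and immediate early genes respond within minutes to growth signals and stress. Those called among them were lower in the class than with DMF. Of 19 tested, 6 were lower in the class than with DMF with 10 arrays and 1, Jun, was higher. Over all genes 2.15% were lower and 2.41% higher. Egr1, a zinc finger factor, read 9.53, 10.20 and 10.73 at the lowest, median and highest class array, 11.46, 10.96 and 11.00 with DMF, and 7.46, 9.17 and 8.73 with DMSO. Every DMF array was above every class array, and every class array above every DMSO array. Egr1 was 2.21 above DMSO with DMF and 1.27 in the class with 10 arrays, and their difference was -0.94 ± 0.15 (limma adjusted p = 0.0107). Its value above DMSO was 1.74 with CDDO-Im and 0.81 with CDDO-Me. Fos, the partner of Jun, was 1.33 above DMSO with DMF and 0.47 in the class, with 7.84, 7.33 and 7.23 on the DMF arrays against 5.99 to 7.14. Ccn2, a matricellular target of TGF-beta, was -0.61 from DMF, and Fosb, Klf2 and Jund were -0.41, -0.58 and -0.33. Unlike Egr1 and Fos, they were not called above DMSO with DMF. With DMF, Ccn2 was -0.74 from DMSO, which was called, and Fosb, Klf2 and Jund were 0.03, -0.07 and 0.04. In the class Ccn2, Fosb and Klf2 were called below DMSO at -1.34, -0.38 and -0.65, and Jund at -0.30 was not called. With 12 arrays none of the 19 genes was called between class and DMF, and 4 had an unadjusted p under 0.05 by limma.

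Genes called against DMSO on both sides in opposite directions numbered 0 with 12 arrays by limma, with 2 at an unadjusted p under 0.05 on both sides. With 10 arrays there were 4 (0.0301%): Irs2 was above DMSO in the class and below it with DMF, and Ivl, Pfkfb4 and Srgap3 were the reverse. Leaving out 1 more array left 1 to 3 of such genes. By the wider rule of a called difference between class and DMF with opposite signs from DMSO, there were 2 genes with 12 arrays (0.0151%), the endothelins, and 206 with 10 arrays (1.55%). Of the 206, the class was higher for 89 and lower for 117. Both triterpenoids on their own lay on the class's side of DMSO for 75 of the 89 and 94 of the 117. The 2 differences share the DMSO arrays, so an error in the DMSO level moves both the same way.

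Irs2, an adaptor of the insulin and IGF receptors, was the gene of the 4 that lay above DMSO with each triterpenoid and below it with DMF. Its class arrays read 9.21, 9.45 and 10.43 at the lowest, median and highest, its DMF arrays 8.56, 8.43 and 8.28, and its DMSO arrays 9.45, 9.01 and 8.77. All class arrays were above all DMF arrays, while DMSO replicate 1 fell inside the class range. With 10 arrays Irs2 was 0.45 above DMSO in the class (limma adjusted p = 0.010) and fell by 0.45 with DMF (adjusted p = 0.024). On its own CDDO-Me was 0.58 above DMSO (adjusted p = 0.00538) and CDDO-Im 0.32 (adjusted p = 0.0876).

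For the other 3, CDDO-Me lay well below DMSO and CDDO-Im close to it with 10 arrays. Ivl encodes involucrin, a precursor of the cornified envelope, and read 7.36, 7.38 and 7.45 with DMF, 6.29, 6.90 and 6.20 with CDDO-Im, 4.85, 5.04 and 4.85 with CDDO-Me, and 5.26, 6.46 and 6.15 with DMSO. DMF was highest without overlap, the CDDO-Im arrays lay among the DMSO arrays or above them, and no CDDO-Me array was above background. With 10 arrays Ivl was 1.10 above DMSO with DMF (limma adjusted p = 0.00087), and the class differed from DMF by -1.82 ± 0.09 (adjusted p = 8.51e-05). With 12 arrays that difference was -1.71 ± 0.26 with an adjusted p of 0.0577. These class values include the CDDO-Me arrays, whose level is only a bound, and DMF was at least 4.37-fold above CDDO-Me. Against DMSO, Ivl was -0.07 with CDDO-Im in the 10 arrays (adjusted p = 0.786).

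Pfkfb4, which makes the glycolytic activator fructose bisphosphate, read 10.84, 10.87 and 10.90 with DMF, 10.49, 10.66 and 10.51 with CDDO-Im, 9.85, 9.84 and 9.95 with CDDO-Me, and 10.34, 10.46 and 10.41 with DMSO. All CDDO-Im arrays were thus at or above DMSO and all CDDO-Me arrays below it. Srgap3, a GTPase-activating protein gene, was 0.01 from DMSO with CDDO-Im and -0.43 with CDDO-Me.

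**Figure D2:**
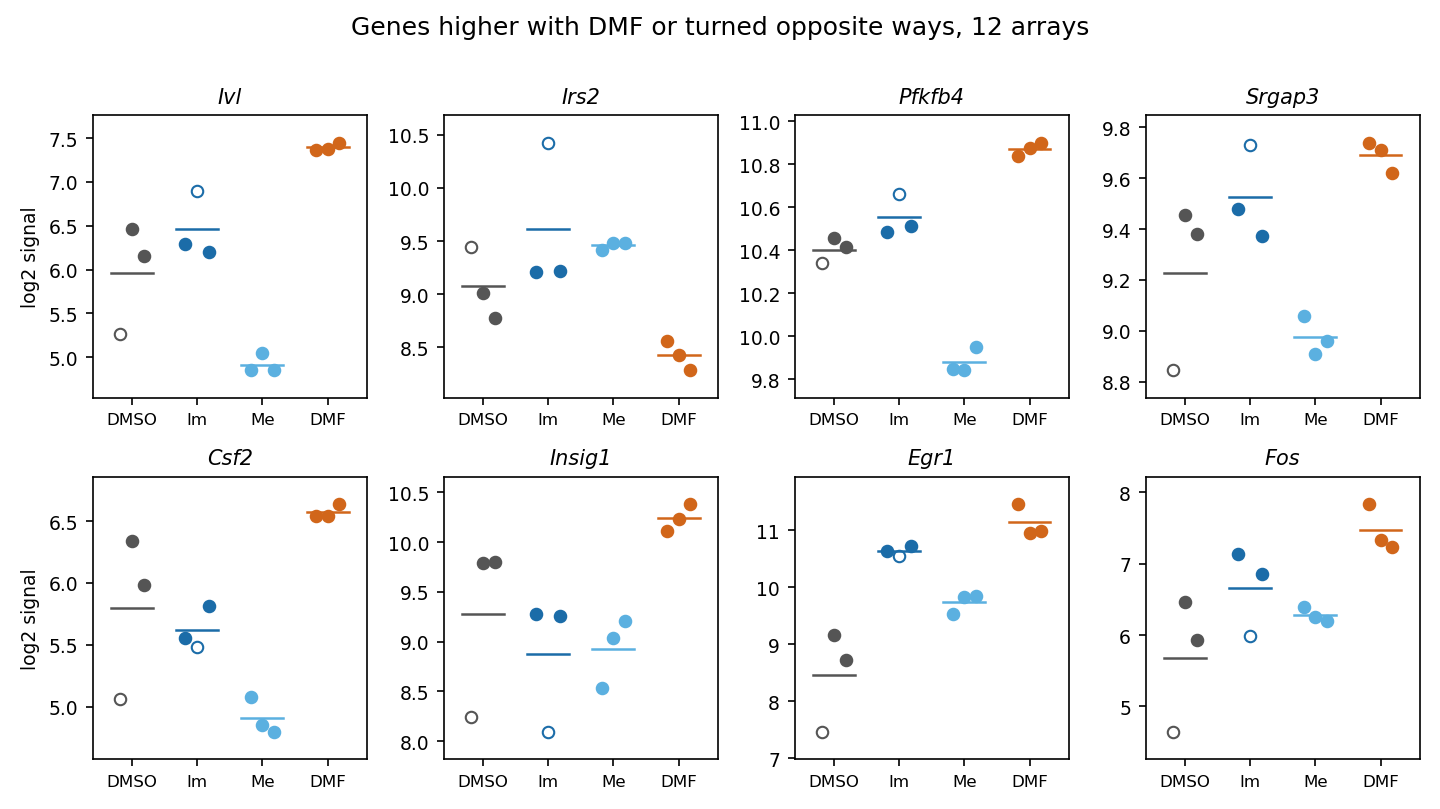
Each panel plots the log2 signal (y axis) of 1 gene on the 12 arrays by treatment (x axis), with lines at group means and open circles for DMSO replicate 1 and CDDO-Im replicate 2. The mean of Irs2 is lowest with DMF and the means of the other 7 genes are highest with DMF. In Ivl, Pfkfb4 and Srgap3 the CDDO-Me mean of all 3 arrays sits below the DMSO mean and the CDDO-Im mean above it.

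The promoters of Irs2 and Ivl are shown as those of genes called on both sides of DMSO, in the same format as the endothelins. Irs2 lies at chr8:11008880-11009179 on the minus strand and holds 1 TGACNNNGC, read on the opposite strand, and Ivl at chr3:92573686-92573985 on the minus strand holds 1 TGACTCA.
Irs2: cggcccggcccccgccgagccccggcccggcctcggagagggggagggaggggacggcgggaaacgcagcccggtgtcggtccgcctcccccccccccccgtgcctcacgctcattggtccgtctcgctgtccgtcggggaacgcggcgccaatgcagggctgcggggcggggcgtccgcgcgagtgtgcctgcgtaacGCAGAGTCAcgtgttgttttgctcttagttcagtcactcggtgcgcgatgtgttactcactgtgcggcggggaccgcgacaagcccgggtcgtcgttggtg
Ivl: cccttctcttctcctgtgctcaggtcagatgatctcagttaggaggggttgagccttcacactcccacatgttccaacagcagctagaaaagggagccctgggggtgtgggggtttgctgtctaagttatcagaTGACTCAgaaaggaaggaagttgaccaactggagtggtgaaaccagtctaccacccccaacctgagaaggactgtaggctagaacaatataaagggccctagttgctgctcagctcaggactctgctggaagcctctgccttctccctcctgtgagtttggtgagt

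**Figure D3:**
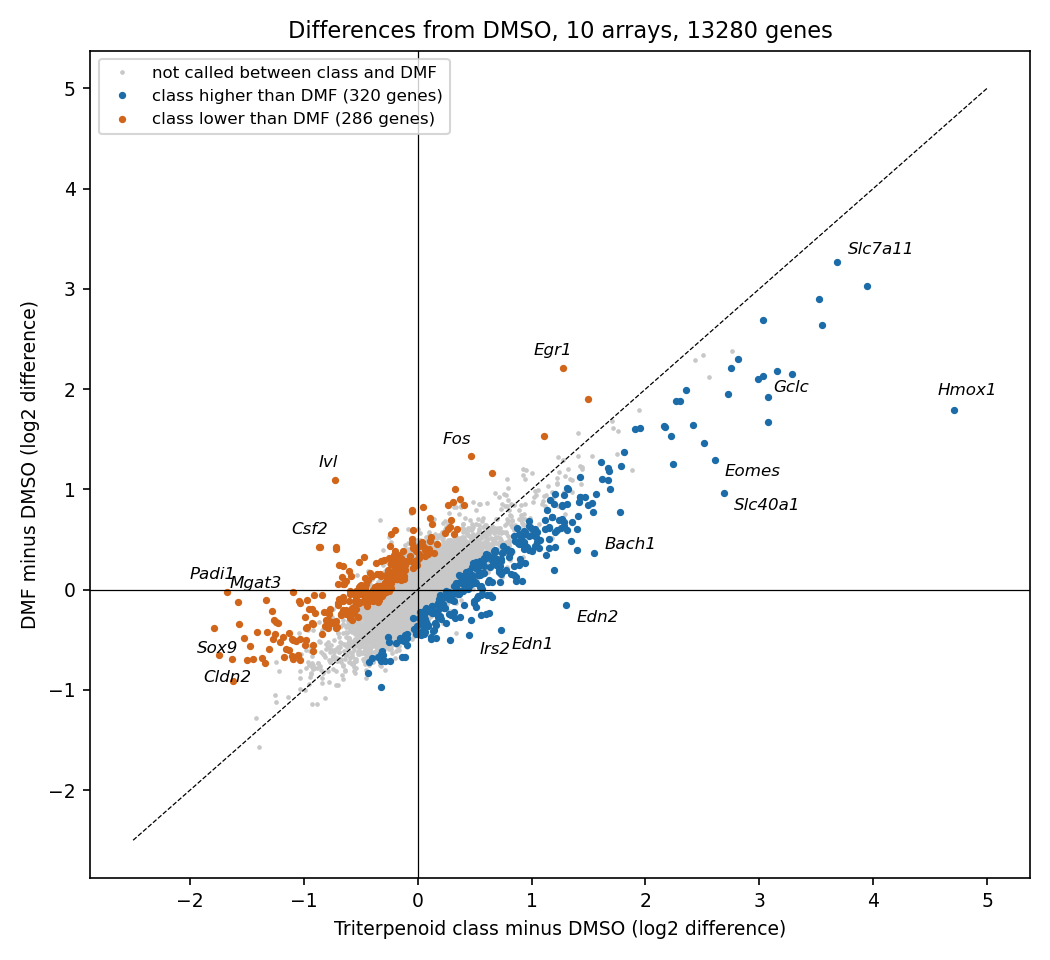
Each point is 1 of 13280 genes with 10 arrays, placed by its log2 difference from DMSO in the class (x axis) and with DMF (y axis), which share the same DMSO arrays. The 320 genes called higher in the class are blue, the 286 called lower are orange, and the dashed line marks equal differences. Hmox1 lies far to the right of that line, while Edn1, Edn2 and Irs2 lie at the lower right and Ivl and Csf2 in the upper left.

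Of the 320 genes higher in the class with 10 arrays, 126 were called above DMSO on both sides and 101 in the class alone. A further 27 were called below DMSO with DMF alone and 8 below it on both sides, Irs2 was called on opposite sides, and 57 were called against DMSO on neither. Of the 286 lower genes, 42 were called below DMSO on both sides, 138 in the class alone, 30 above it with DMF alone and 13 above it on both sides. Another 3 were called on opposite sides and 60 on neither. Large differences were few: 25 of the 606 exceeded 1 log2 unit, 11 higher and 14 lower, and 373 were under 0.5. Non-overlap of the 6 class arrays with the 3 DMF arrays was seen for 377 of the 606. Over all genes the share was 8.09%, 4.96% with the class above and 3.13% with it below. The 606 were called from most of these same arrays, so their non-overlap is no separate result.

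The called genes of the cytokine and NF-kB lists were lower in the class with 10 arrays. Besides Csf2, the called cytokine genes were the interleukin-1 receptor antagonist Il1rn (-1.23 from DMF) and Lif (-0.46). The median log2 differences between class and DMF were -0.04 for the cytokine list and -0.02 for the NF-kB list, against 0.01 over all genes. Of 11 tested cytokine and chemokine genes 3 were lower and 0 higher with 10 arrays, and of 12 NF-kB genes 3 were lower and 0 higher. Over all genes 2.15% were lower and 2.41% higher. The 2 lists had 6 and 3 genes at an unadjusted p under 0.05. With 12 arrays 0 of either list were called by limma, with 2 and 0 at an unadjusted p under 0.05. Csf2, which encodes the growth factor GM-CSF, read 6.54, 6.54 and 6.64 with DMF, 5.56, 5.48 and 5.81 with CDDO-Im, 5.08, 4.85 and 4.80 with CDDO-Me, and 5.07, 6.34 and 5.98 with DMSO. DMF was highest without overlap, and none of the CDDO-Me arrays was above background, with DMF at least 2.47-fold above them. The class differed from DMF by -1.28 ± 0.10 (limma adjusted p = 0.000522, 10 arrays), and from DMSO by -0.86 (adjusted p = 0.0023). These class values include the CDDO-Me arrays, whose level is only a bound. CDDO-Im on its own was -0.48 from DMSO, which did not pass the test (limma adjusted p = 0.0724, 10 arrays). DMF was 0.43 above DMSO, which did not pass the test (adjusted p = 0.0841). In the NF-kB list, the feedback inhibitor Tnfaip3 was -0.60, the nuclear IκB protein Bcl3 -0.76 and its relative Nfkbiz -0.36, and with DMF the 3 were -0.22, 0.05 and 0.08 from DMSO, none of them called.

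Of 5 tested leukocyte markers, 3 were lower in the class with 10 arrays, against 2.15% of all genes. They were the receptor gene Gp49a under its array name, the Fc receptor Fcgr3 and the endotoxin receptor Cd14. The receptor gene Csf1r and the lysosomal Cd68 were not called, at -0.02 each. With 12 arrays 0 of the 5 were called by limma, with 3 at an unadjusted p under 0.05. Gp49a read 7.44, 7.38 and 6.90 with DMF, 6.54, 6.68 and 6.54 with CDDO-Im, 5.45, 5.18 and 5.55 with CDDO-Me, and 7.68, 6.88 and 6.81 with DMSO. The class arrays lay below both other groups. The summed signal of the 5 markers was 1812 to 3259 units with DMSO, 1450 to 1535 with DMF, 1028 to 1489 with CDDO-Im and 841 to 930 with CDDO-Me. The defining leukocyte genes Ptprc, Itgam and Cd3e were above background on no array.

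Genes of cholesterol synthesis and its control differed as a group of called genes on the lower side. Of 17 tested, 6 were lower in the class than with DMF with 10 arrays and 0 higher, against 2.15% and 2.41% of all genes. In the list 12 had an unadjusted p under 0.05. The list's median log2 difference was -0.30 against 0.01 over all genes. Its median difference from DMSO was -0.01 in the class and 0.34 with DMF. With DMF, 4 members were called above DMSO (4.16% of all genes) and 0 below it (4.26%). In the class 0 were called above DMSO (6.81%) and 1 below it (7.15%), Insig1 at -0.72. Insig1, the sterol-sensing brake on SREBP processing, read 10.11, 10.23 and 10.38 with DMF, 8.09 to 9.28 in the class with a median of 9.12, and 8.25, 9.79 and 9.80 with DMSO. DMF was above every other array, and the lowest values were the 2 arrays that stand apart. Insig1 differed between class and DMF by -1.13 ± 0.11 with 10 arrays (limma adjusted p = 0.00165) and by -1.25 ± 0.34 with 12 (adjusted p = 0.549).

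The pathway enzymes Idi1, Msmo1, Cyp51, Mvd and Fdps were -0.59, -0.58, -0.44, -0.41 and -0.35 from DMF. In the fatty acid list, 3 of 12 were lower and 0 higher, against 2.15% and 2.41% of all genes with 10 arrays. The 3 were the desaturase Scd1 (-0.59), the acyl-CoA synthetase Acsl3 (-0.51) and the regulator Srebf1 (-0.43). With 12 arrays 0 genes of both lists were called, with 3 and 2 at an unadjusted p under 0.05 by limma.

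With 10 arrays, 10 of 18 hypoxia and glycolysis genes were called above DMSO with DMF (4.16% of all genes) and 5 in the class (6.81%), counts that share the DMSO arrays. Directly between class and DMF, 4 of the 18 were lower in the class (2.15% of all genes) and 0 higher. With 12 arrays 1 was above DMSO with DMF and 2 in the class, and 0 differed between class and DMF by limma, with 3 at an unadjusted p under 0.05. Besides Pfkfb4 these were the oxygen sensor Egln1 (-0.45), the collagen prolyl hydroxylase P4ha2 (-0.37) and the pyruvate dehydrogenase kinase Pdk1 (-0.31), and each of these 3 rose from DMSO with DMF by 0.28 to 0.42. In the class the same genes were not called against DMSO, with differences of -0.04, -0.09 and 0.09.

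Of 25 tested amino acid and stress genes under ATF4, 8 were called above DMSO in the class and 8 with DMF with 10 arrays. The shares of all genes were 6.81% and 4.16%. Directly against DMF, 5 of the 25 were lower in the class and 0 higher with 10 arrays. Over all genes 2.15% were lower and 2.41% higher. In the list 10 had an unadjusted p under 0.05. With 12 arrays 0 of the list were called by limma, with 2 at an unadjusted p under 0.05. Nupr1, a stress-induced chromatin protein gene, read 10.05, 10.06 and 9.89 with DMF, 9.10 to 9.74 in the class, and 9.71, 9.31 and 9.50 with DMSO. The class and DMSO overlapped and DMF lay above both, with a difference of -0.80 ± 0.07 between class and DMF (limma adjusted p = 0.000825, 10 arrays). Chac1, a glutathione-degrading enzyme, was 1.53 above DMSO with DMF and 1.11 in the class, and Trib3 was 1.9 and 1.49 in the same order. The other called members were Ddit4 (-0.52) and Wars (-0.28). The mTOR inhibitor gene Ddit4 was 0.38 above DMSO with DMF, which did not pass the test (adjusted p = 0.0646).

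Heat shock genes had 2 of 20 members higher in the class with 10 arrays, against 2.41% of all genes, and 0 with 12 by limma. In the list 4 and 0 had an unadjusted p under 0.05 in the same order. The 2 higher members were the small heat shock protein gene Hspb8 (0.47) and its partner Bag3 (0.28). The lists of proteasome subunits (24 tested), S phase (17), G2/M phase (14), matrix metalloproteinases (11) and fumarate and Krebs cycle genes (11) had 0 genes called between class and DMF with 10 arrays by limma. Their counts at an unadjusted p under 0.05 were 1, 1, 1, 5 and 0. The matrix metalloproteinase Mmp10 was 2.76 above DMSO in the class and 2.38 with DMF, with a difference of 0.38 ± 0.10 (adjusted p = 0.086).

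**Figure D4:**
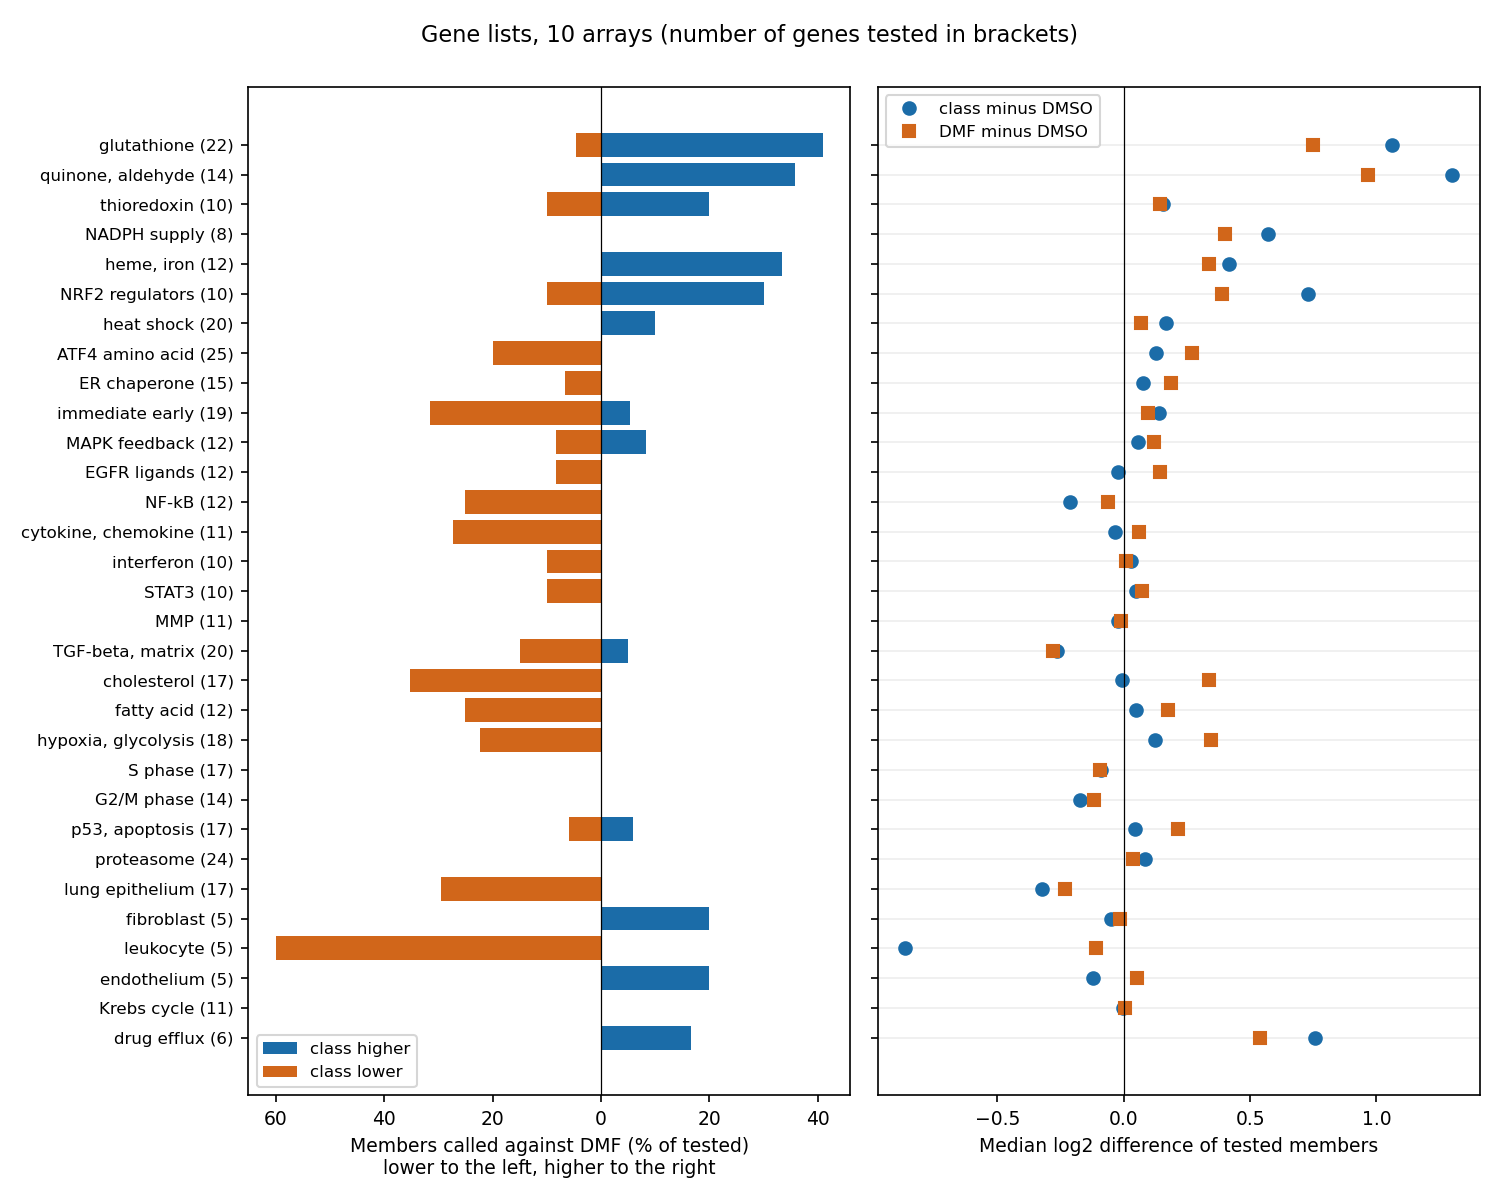
The left panel gives, for each gene list (number of genes tested in brackets), the percent of tested members called higher (right) or lower (left) in the class than with DMF with 10 arrays. The right panel gives the list's median log2 difference from DMSO in the class (circles) and with DMF (squares). Glutathione and quinone genes lie to the right in the left panel, and cholesterol, hypoxia, immediate early and leukocyte genes to the left. Over all genes the shares are 2.41% and 2.15%.

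Each triterpenoid was also set against DMF on its own, with p-values adjusted over both contrasts together. With 12 arrays, CDDO-Im was called higher for 4 genes and lower for 0, and CDDO-Me higher for 1 and lower for 5. With 10 arrays CDDO-Im was called higher for 189 and lower for 109, and CDDO-Me higher for 217 and lower for 272. Both were called for 118 higher and 81 lower genes, in comparisons that share the DMF arrays. Of the genes called for the class, both compounds lay on the same side of DMF for all 320 higher and for 285 of the 286 lower. Hmox1 was 3.34 above DMF with CDDO-Im and 2.49 with CDDO-Me, and Edn1 was 0.78 and 1.49 in that order. Among the lower genes, Mgat3 was -0.93 and -1.98, Gp49a -0.72 and -1.85, and Usp43, a ubiquitin protease gene, -0.66 and -1.64. Slc40a1 (1.67 and 1.78), Abcb4 (1.19 and 1.13), Fgfbp1 (1.04 and 0.95) and Sgsm1 (-0.95 and -0.88) had closer values. The values stand side by side without a test, since the doses were 0.05 and 0.1 µM.

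**Figure D5:**
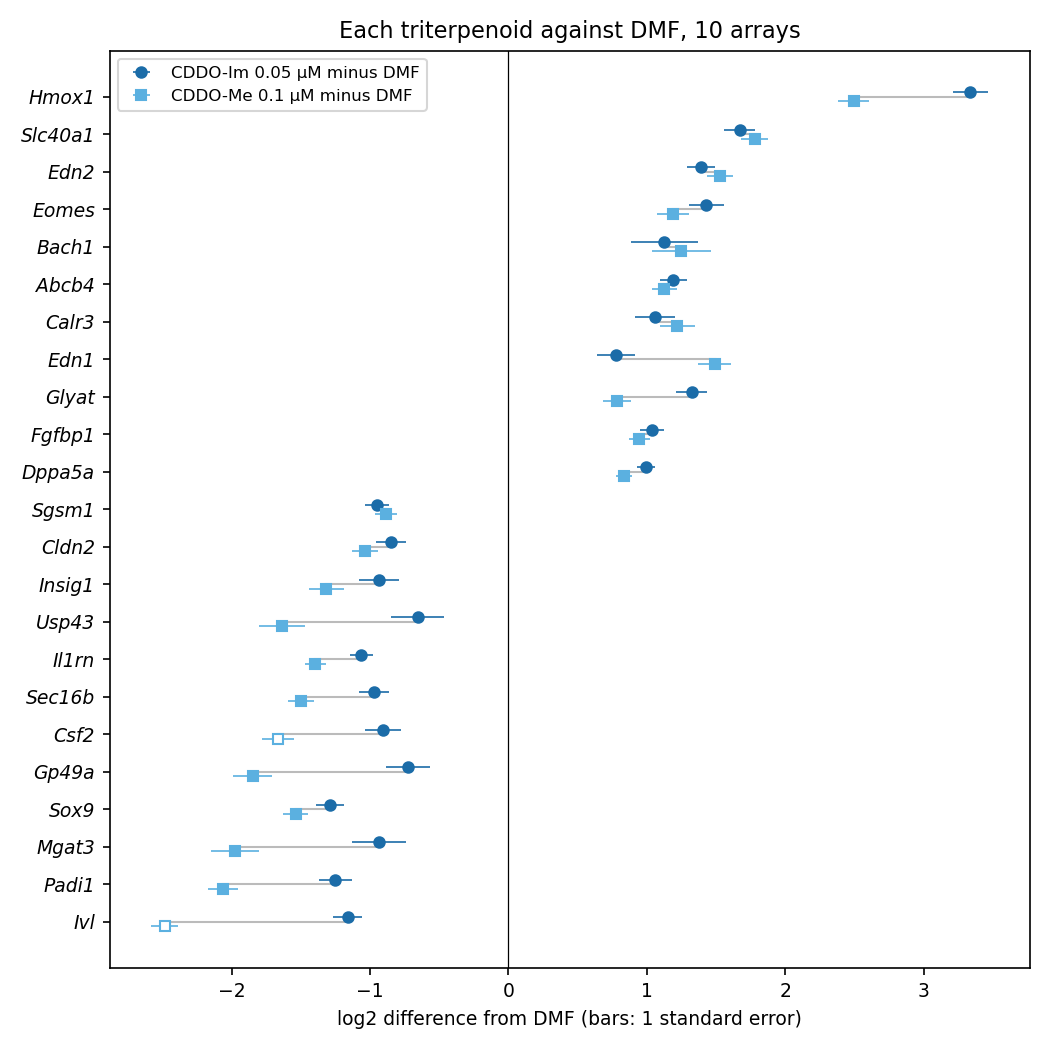
Log2 difference from DMF (x axis) with 10 arrays for 11 higher and 12 lower genes (y axis), those called with 12 arrays and then the largest differences with 10 arrays. Values are drawn as circles for 0.05 µM CDDO-Im and squares for 0.1 µM CDDO-Me, with bars of 1 standard error. Both compounds lie on the same side of 0 for all 23 genes, which the rule for naming them required. The values of compounds above background range from -2.06 for Padi1 to 3.34 for Hmox1. Open squares mark Ivl and Csf2, which were above background on no CDDO-Me array, so that only a bound is known there.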

How the data were processed

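RNA of 12 samples was hybridised to Illumina mouse whole-genome BeadChips, 6 arrays to each of 2 chips, and the arrays were grouped by their titles. Deposited intensity values were mean bead signals of 45281 probes, exported with the Gene Expression module of GenomeStudio 1.9.0 without normalization or background subtraction, per the file headers. Deposited detection p-values and the deposited count of beads per probe (median 35 to 41 by array) came from the same reports. A deposited matrix of normalized intensity values, whose method is not given in the sources used here, had column medians of 170.18 to 172.05 and served as an alternative. The series' design text assigns 0.1 µM to CDDO-Im, unlike the titles and the treatment protocol, and the doses here are those of the titles.

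In limma 3.58.1 (R 4.3.3), signals were background-corrected by normexp from the detection p-values (offset 16), quantile normalized and log2 transformed. The 19211 probes detected (p under 0.05) on 3 or more arrays were retained, and the brightest kept probe stood for each gene, giving 13280 of 30561 genes. For 33 of the 34 named genes with several kept probes, all probes had 1 sign. Names were updated from RefSeq for 29586 probes by Entrez number and 2759 by accession, and 12936 kept the array's name. A fit of all 12 arrays had group and chip as terms, and the class was the mean of CDDO-Im and CDDO-Me. This 1 pooled contrast was tested two-sided, with Benjamini-Hochberg adjustment over all genes and a threshold of 0.05. The fit of 10 arrays used the same values and was made a result of its own after the data were seen. Where no array of a group was above background, a fold is given as a bound from the lowest detected signal. The number of arrays limits the precision.

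The groups compared, the gene lists and the rule for named genes were chosen with earlier results of these data known. The rule took the 12 largest differences each way, up to 8 genes of opposite direction, up to 6 genes each way that one side moved and the other lacked, up to 3 called members of each of 31 lists or the member with the smallest p, and some NRF2 targets and Egr1 in any case. The genes with the largest differences needed 1 sign in both compounds and both chips. Where too few genes passed with 12 arrays, the 10-array fit filled the rest. Srgap3, Cyp51, Mvd, Fdps, Fosb, Klf2, Jund, Blvrb, Sqstm1, Krt7, Aqp8, Pdk1 and Wars were named after their values were seen, to complete counts. The values of some genes that met the rule, among them 1 of the 9 called with 12 arrays, are not reported here. The tests were checked on simulated data.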

Additional observations from a re-analysis of the deposited data

Results flagged for a closer look

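Among 96 named genes, 19 had 1 class array far from the other 5, by the gap to its nearest neighbour as a share of the range. If all arrays were alike, the limit used would flag about 1 in 20 groups of this size. That rate does not apply here, since the class arrays came from both compounds. Many of the genes were also chosen by calls made without CDDO-Im replicate 2. In 18 of the 19 the array was CDDO-Im replicate 2, which also stands apart in mean signal and in correlation.

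That array was the highest of the class for Edn2 at a log2 signal of 8.51 (others 7.61 to 7.92), Irs2 at 10.43, Abcb4 at 9.32, Jun at 8.25, Gss at 11.31, Mical1 at 8.55 and Lst1 at 7.28. It was also highest for Nupr1 at 9.74, Cd14 at 10.26 and Taldo1 at 14.06. It was the lowest for Slc40a1 at 8.65, Nqo1 at 6.48, Gclm at 13.25, Egln1 at 5.61, Srebf1 at 6.88, Acsl3 at 10.03, Cdk1 at 11.28 and Mcm3 at 8.33. For Eomes, CDDO-Im replicate 3 was highest at 9.91.

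Without the 2 arrays that stand apart, Edn2 was 1.46 above DMF in place of 1.58, Irs2 0.90 in place of 1.06 and Slc40a1 1.72 in place of 1.68. The part of array quality in these values was not tested.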

How the results depend on the processing

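The count of genes called between class and DMF was 9 with all 12 arrays and moved with most choices. It was 606 with 10 arrays, 1075 with array quality weights, 16 with the class as 1 group, 51 with only the groups compared in the fit, 28 without the chip term and 22 with chip as a random block. It was 33 within chip 2 and 0 within chip 1, where limma gave 5 at an unadjusted p under 0.05. It was 18 without background correction, 19 with an offset of 50, 21 with cyclic loess, 1 with median scaling, 26 in the authors' matrix and 19 without the filter on dim probes. Leaving out 1 array gave 0 to 77. The array weights, gene by gene since the default method did not converge, were 0.032 for DMSO replicate 1 and 0.042 for CDDO-Im replicate 2.

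The class against DMSO gave 265 calls, and 1854 with 10 arrays, 4070 with weights, 130 with only those groups, 0 within chip 1, 515 within chip 2 and 138 to 474 without 1 array. DMF against DMSO gave 46, and in the same order 1118, 3085, 1, 0, 147 and 23 to 121, with 80 without the chip term, 83 with chip as a random block, 87 with cyclic loess and 86 in the authors' matrix. Genes called on opposite sides of DMSO numbered 0, and 4 with 10 arrays and 17 with weights. Genes called between class and DMF with opposite signs numbered 2, and 206 with 10 arrays, 393 with weights, 15 with only the groups compared, 7 without the chip term, 6 with chip as a random block, 0 within chip 1, 11 within chip 2, 5 with cyclic loess, and 0 to 20 without 1 array. They numbered 4 with an offset of 50 or without the filter, and 1 with the class as 1 group, median scaling, detection on all 12 arrays or every probe on its own.

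Replicate numbers were not taken to pair the arrays, since not every pair correlated over 0.1: 10 of 18 same-numbered pairs did (range -0.296 to 0.363), among them all 6 of replicate 3 (0.147 to 0.363), and 7 of 12 arrays correlated best with their own number. The replicate block in place of chip gave 4 calls between class and DMF, among them Hmox1, Edn2 and Fgfbp1, and 1 with opposite signs. Edn1, Dppa5a, Cldn2, Sgsm1 (adjusted p = 0.0687 each) and Sox9 (0.0807) lost their call under it.

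Median scaling moved the median difference of all genes from DMSO to 0.111 in the class and 0.124 with DMF. The 9 called genes kept their sign in the alternatives run but not their call, each being called in 11 to 18 of 26 or 27. Differences were smallest in the authors' matrix for Edn2 (0.62), Edn1 (0.26), Fgfbp1 (0.33), Sox9 (-0.83) and Sgsm1 (-0.36), and without background correction Edn1 was 0.65 and Fgfbp1 0.66. Of 3992 values of single genes under alternatives, 6 turned sign, all of Txnrd1: -0.0713 with chip as a random block, and in the 10 arrays -0.0112 without the chip term and -0.0245 to 0.1019 without 1 array, with -0.011, -0.008 and -0.001 among them. The cause was not tested. The 10-array fit as a result of its own was added after seeing the data. So were its processing on its own and its fit without chip, which gave 594 and 526 calls, and its left-out arrays. Leaving out 1 of the 10 arrays gave 264 to 645 calls between class and DMF, 891 to 1802 for the class against DMSO, 350 to 1176 for DMF against DMSO, 1 to 3 on opposite sides of DMSO and 80 to 217 of opposite signs. Signal over background limits Edn1, Ivl, Csf2 and Fgfbp1, each undetected on some arrays.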
